A study of Rattus norvegicus with 32 samples.

Results

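Cellular iron uptake and iron sensing were followed through 10 genes of the rat hippocampus, taken as the genes of the deposited count table that carry these symbols: the transferrin receptors Tfrc and Tfr2, the metal importers Slc11a2, Slc39a14 and Slc39a8, the metal reductases Steap2 and Steap3, and the iron sensors Aco1, Ireb2 and Fbxl5. Each of the 10 was found once among the 32883 genes of the table, and all 10 had enough counts to be among the 15439 genes tested. RNA was sequenced from 1 hippocampus of each of 32 wild-type rat pups. The iron-deficient (ID) groups came from dams fed a purified diet with 3 to 6 ppm iron from gestational day 3 to postnatal day 7, and the iron-sufficient (IS) groups served as their controls. Pups of the insulin groups received insulin through the nose in 2 doses a day from postnatal day 8 to 21. No dose of insulin and no vehicle for the control groups is given in the sources used here. Without insulin there were 8 IS and 9 ID libraries (IS control and ID control), and with it 7 IS and 8 ID libraries (IS insulin and ID insulin).

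Iron reaches most cells bound to transferrin, which is taken in by transferrin receptor 1, the product of Tfrc. In the endosome the iron is reduced by a STEAP protein and leaves through DMT1, the product of Slc11a2. Inside the cell it is sensed by the iron regulatory proteins IRP1 (Aco1) and IRP2 (Ireb2). When iron is scarce these bind stem-loops called iron-responsive elements, which protects the Tfrc mRNA from decay and blocks translation of ferritin. FBXL5, which is itself stabilised by iron, marks IRP2 for degradation. In the brain transferrin receptor 1 is known for its abundance in capillary endothelium, where it carries iron across the blood-brain barrier, and it is also present in neurons.

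Total counts were 19619345 to 28062630 per library. Levels are given as CPM (counts scaled to a common library size) on TMM-scaled library totals, with the SD over libraries. They are not divided by transcript length, so levels are compared between groups and not between genes. Differences are log2 fold changes from edgeR's quasi-likelihood test, and a gene is called where its p-value, adjusted by the Benjamini-Hochberg method over the 15439 genes, is under 0.05. No source used here names the litters behind the groups, and the tests therefore cover the spread between these pups alone. The labels give the day of collection as postnatal day 7 or 21 without assigning it to a library. For the control groups, age and insulin therefore cannot be told apart from the labels alone. Of 10 oligodendrocyte genes, which rise with age, all 10 were higher in value in IS insulin than in IS control, and 0 were called. Their median log2 fold change was 0.10, beside 0.0112 for all genes tested. All 10 were also higher in value in ID insulin than in ID control, with a median of 0.17 beside 0.0039. There 1 of 10, Ugt8, was called. Of all genes tested 0.123% and 3.82% were called in these comparisons. Whether the groups differed in age was not tested. Of 10 hippocampal neuron genes 8 had enough counts to be tested, and the others were near the limit of detection. Prox1, the granule cell transcription factor, was at 61.8 to 135 CPM over the 32 libraries. Libraries differed in the tissue beside the hippocampus. The summed level of 10 choroid plexus genes ran from 17.3 to 6049 CPM over the 32 libraries, and that of 6 thalamus genes was 513.9 CPM in ID insulin replicate 5 against 274.9 or less in every other library. The lowest summed level of 10 hippocampal neuron genes, 2864 CPM, was in ID insulin replicate 3.

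Tfrc was higher in the iron-deficient pups than in the iron-sufficient pups, both without insulin and with it. IS control libraries held 106.2 to 126.9 CPM (median 117.9) and ID control libraries 127.5 to 193.6 CPM (median 168.8). All 9 ID control libraries lay above the highest IS control library, although the lowest of them, ID control replicate 5, cleared it only narrowly. The means were 117 ± 6.55 CPM (SD, n = 8) and 169 ± 19.7 CPM (SD, n = 9). This was a log2 fold change of 0.53 ± 0.07 (SE), a 1.44-fold difference (95% confidence interval 1.31 to 1.59), with an adjusted p of 1.16e-04 in edgeR's quasi-likelihood test. Tfrc had the lowest p-value of all 15439 genes in this comparison. It was the only 1 of the 10 genes called, where 0.291% of all genes tested were called.

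With insulin, IS insulin libraries held 116.9 to 164.8 CPM of Tfrc (median 120.4) and ID insulin libraries 172.9 to 225.4 CPM (median 205.4). Again the groups did not overlap, with 8 of 8 ID insulin libraries above the highest IS insulin library. The means were 127 ± 17.0 CPM (SD, n = 7) and 203 ± 17.4 CPM (SD, n = 8). The log2 fold change was 0.68 ± 0.07 (SE), which is 1.60-fold (95% confidence interval 1.44 to 1.77), with an adjusted p of 1.79e-06 by edgeR. ID insulin exceeded IS control by a log2 fold change of 0.79 ± 0.07 (SE), or 1.73-fold, with an adjusted p of 1.35e-08. Tfrc had the lowest p-value of the genes tested in both of these comparisons too, and it was the only member called, where 2.45% and 3.35% of all genes were called. These comparisons share the ID insulin libraries.

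**Figure D1:**
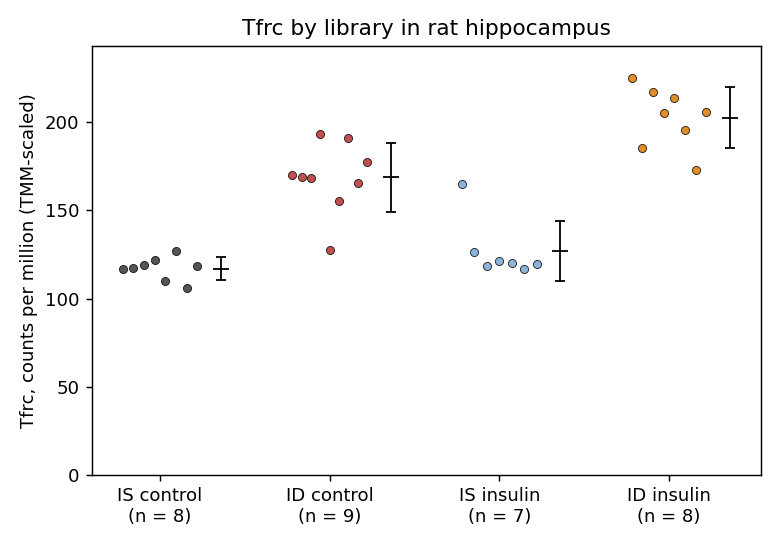
Tfrc in CPM (vertical axis, from 0) in each of the 32 libraries, by group, with the mean and SD beside each group. The 9 ID control libraries sit above all IS control libraries, the ID insulin libraries reach 225.4 CPM, and 1 IS insulin library stands at 164.8 CPM, apart from the other 6.

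Among iron-deficient pups Tfrc was higher with insulin than without. In this comparison 6 of 8 ID insulin libraries lay above the highest ID control library, so the groups overlapped. Tfrc differed by a log2 fold change of 0.26 ± 0.07 (SE), a 1.20-fold difference (95% confidence interval 1.09 to 1.32), with an adjusted p of 0.0243 by edgeR. Tfrc ranked 286th of 15439 genes by p-value and was the only member called, where 3.82% of all genes were called. The call was lost in a fit of the compared groups alone (log2 fold change 0.26, adjusted p = 0.0566), and with the ID control libraries of title number 69 alone (0.28, adjusted p = 0.0836) or 70 alone (0.23, adjusted p = 0.140). It was also lost without ID insulin replicates 3 and 5 together (0.23, adjusted p = 0.0806).

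Among iron-sufficient pups the difference with insulin was not called. The log2 fold change of Tfrc was 0.12 (95% confidence interval -0.03 to 0.26, adjusted p = 0.440 by edgeR). The single high library, IS insulin replicate 1, set most of it, since without that library the log2 fold change was 0.04 (adjusted p = 0.879). The other 6 IS insulin libraries, at 116.9 to 126.5 CPM, lay within the range of IS control. The interaction, which tests whether insulin shifted Tfrc differently in ID and IS pups, was 0.15 on the log2 scale (95% confidence interval -0.05 to 0.35, adjusted p = 0.462), and 0.23 (adjusted p = 0.174) without IS insulin replicate 1. The means thus rose from IS control through IS insulin and ID control to ID insulin. IS control and IS insulin did not differ beyond their spread, and IS insulin and ID control overlapped through IS insulin replicate 1.

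Marker levels of other cell types also differed in value between these groups. The summed level of 13 endothelium and pericyte genes was 433.3 to 644.8 CPM in IS control and 639.4 to 708.3 CPM in ID control. With insulin it was 548 to 657.7 CPM in IS and 442.7 to 658.9 CPM in ID pups. In ID control against IS control 12 of the 13 were higher in value, with a median log2 fold change of 0.21, and 0 were called. The 9 choroid plexus genes tested were all higher in value in ID control, with a median of 1.19, and 0 were called. Their list summed to 17.3 to 3328 CPM in IS control and 1198 to 5599 CPM in ID control. The 8 meninges genes tested were likewise all higher in value, with a median of 0.215, and 0 were called. With the mean of the endothelium and pericyte list as a covariate the Tfrc difference between ID control and IS control was 0.55 (adjusted p = 0.00106). With the choroid plexus mean as a covariate it was 0.46 (adjusted p = 0.00347). In bulk tissue more cells of a type and more RNA per cell cannot be told apart.

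Between ID insulin and ID control some vascular, proliferation and red cell markers were also called, the vascular ones lower and the others higher. Of all genes tested 1.96% were called higher and 1.86% lower in this comparison. Of the 13 endothelium and pericyte genes 3 fell, namely Vtn, Itm2a and Cdh5, with log2 fold changes of -0.48, -0.28 and -0.37. Of 13 proliferation genes 3 rose, the cell cycle genes Mki67, Cenpf and Prc1, with log2 fold changes of 0.54, 0.49 and 0.51. Their summed level was 42.6 to 60.6 CPM in ID control and 58.7 to 86.4 CPM in ID insulin. Of 8 red cell genes tested 4 rose, including Alas2, which makes the first intermediate of heme in red cell precursors, and Slc4a1, the red cell anion exchanger, with log2 fold changes of 1.15 and 1.30. The summed level of 9 red cell genes was 1072 to 2515 CPM in ID control and 1059 to 4643 CPM in ID insulin. Of 8 meninges genes 5 fell, among them the matrix genes Bgn and Col1a1, with log2 fold changes of -0.43 and -0.61. With the proliferation mean as a covariate the Tfrc difference between ID insulin and ID control was 0.11 (adjusted p = 0.499). It was 0.24 (adjusted p = 0.169) with the endothelium and pericyte mean and 0.27 (adjusted p = 0.0693) with the erythroid mean. The loss was not particular to Tfrc. Over all genes 589 were called as reported, and 56, 76 and 319 with these 3 covariates in the same order. The summed proliferation levels of the groups overlapped only between 58.7 and 60.6 CPM, so that list and the grouping can hardly be told apart. The Tfrc difference between ID insulin and IS insulin remained called with each of these covariates and was smallest, 0.48 (adjusted p = 0.00633), with the proliferation mean.

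**Figure D2:**
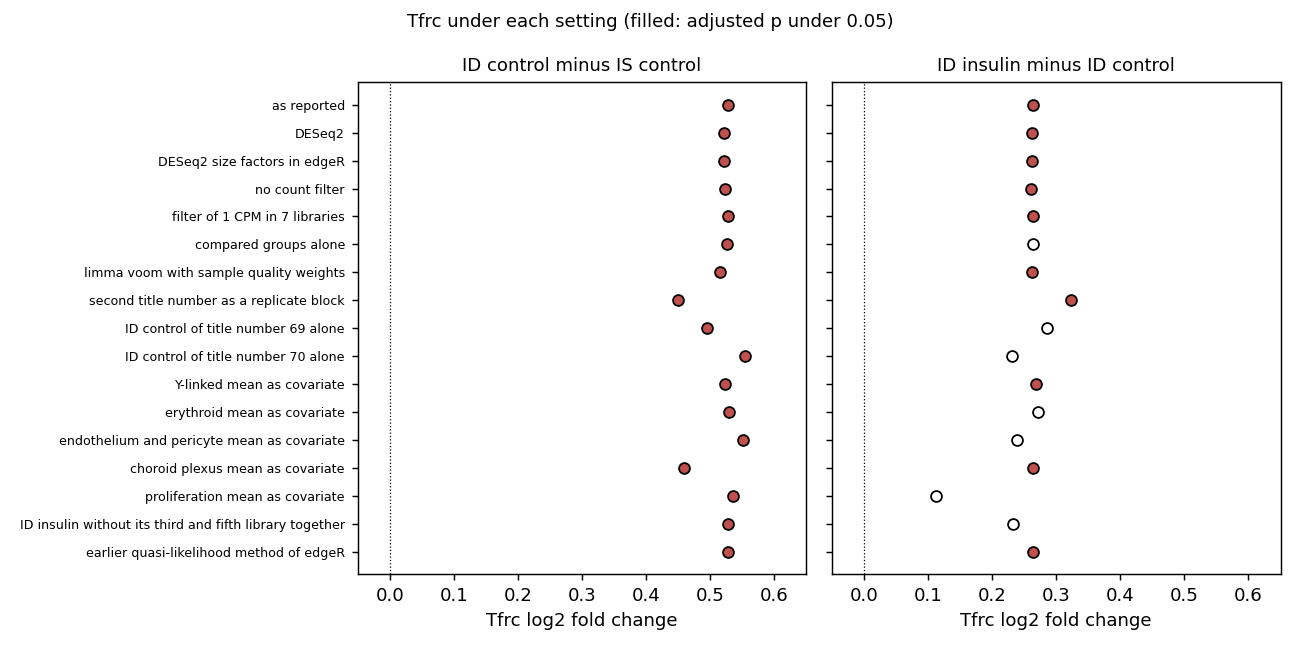
Log2 fold change of Tfrc (horizontal axis) under each setting (vertical axis), for ID control minus IS control on the left and ID insulin minus ID control on the right. Filled points have an adjusted p under 0.05. All points on the left are filled, from 0.45 to 0.55, while on the right the values run from 0.11 to 0.32 and 7 of them are open.

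Promoter windows are shown for Tfrc, the member that was called, and for Steap2, whose level varied with that of Tfrc within groups. They come from RefSeq on build GRCr8 and run from 250 bases before to 50 bases after the start. The Tfrc window is chr11:81690269-81690568 on the minus strand and the Steap2 window chr4:29303131-29303430 on the plus strand. Capitals mark the letters ACGTG, the core of the hypoxia response element bound by hypoxia-inducible factors, which are known regulators of Tfrc.
Tfrc: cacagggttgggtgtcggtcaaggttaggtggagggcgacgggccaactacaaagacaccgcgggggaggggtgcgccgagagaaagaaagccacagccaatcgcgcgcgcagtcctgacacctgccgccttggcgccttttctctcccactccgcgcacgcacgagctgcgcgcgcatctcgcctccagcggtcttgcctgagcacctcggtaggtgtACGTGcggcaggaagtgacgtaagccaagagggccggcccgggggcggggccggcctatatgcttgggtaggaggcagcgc
Steap2: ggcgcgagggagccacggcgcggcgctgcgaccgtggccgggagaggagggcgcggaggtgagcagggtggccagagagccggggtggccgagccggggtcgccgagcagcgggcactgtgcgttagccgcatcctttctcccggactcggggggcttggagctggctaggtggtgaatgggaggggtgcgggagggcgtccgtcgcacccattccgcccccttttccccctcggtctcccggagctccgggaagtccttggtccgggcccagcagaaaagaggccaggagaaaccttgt
The core was searched on both strands. It lies 31 bases upstream of the Tfrc start on the gene's own strand and was not found in the Steap2 window. Windows were found for 9 of the 10 genes, all but Slc39a14. Besides Tfrc the core was found in the window of Fbxl5, where it reads on both strands from overlapping letters 114 bases upstream. Of 33469 promoter windows in all, 19.3% hold it on either strand. Hif1a, a subunit of that factor, was at 95.4 ± 4.25 CPM (SD, n = 8) in IS control and 99.1 ± 5.73 CPM (SD, n = 9) in ID control, with an adjusted p of 0.575 by edgeR. These are mRNA levels alone. The protein and its activity were not measured, and a role of the factor in the Tfrc difference was not tested.

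The second transferrin receptor, Tfr2, is known as a sensor of transferrin-bound iron in liver and red cell precursors. It was near the limit of detection, with 9 to 39 reads per library. Group means were 0.820 ± 0.272 CPM in ID control (SD, n = 9) and 0.990 ± 0.320 to 1.09 ± 0.455 CPM in the other groups (SD, n = 7 or 8). All 4 groups overlapped. The log2 fold change of ID control against IS control was -0.24, with a 95% confidence interval from -0.77 to 0.29. The upper bound lies below the rise of Tfrc, 0.53, while a fall of that size lies within the interval.

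Slc11a2 encodes DMT1, which carries ferrous iron out of the endosome. IS control libraries held 57.2 to 62.8 CPM (median 59.2), ID control 57.9 to 66.3 (median 60.1), IS insulin 57.1 to 64.0 (median 59.0) and ID insulin 56.6 to 75.3 (median 65). The first 3 groups covered nearly the same range, and ID insulin reached above and just below it. ID control and IS control differed by a log2 fold change of 0.04 (95% confidence interval -0.05 to 0.12, adjusted p = 0.784 by edgeR). ID insulin exceeded IS control by 0.14 (adjusted p = 0.0597), IS insulin by 0.14 (adjusted p = 0.0771) and ID control by 0.10 (adjusted p = 0.156), none of which was called. With each of the 32 libraries left out in turn, the adjusted p-values ranged from 0.0207 to 0.142, from 0.0199 to 0.166 and from 0.0469 to 0.319. The lowest of each was without ID insulin replicate 3, which held the lowest value of its group.

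The ZIP transporters Slc39a14 and Slc39a8 take up zinc, manganese and iron that is not bound to transferrin. Slc39a14 means were 33.9 ± 4.79 CPM in ID insulin (SD, n = 8) to 36.045 ± 2.25 CPM in IS control (SD, n = 8), and its largest log2 fold change, ID insulin against IS control, was -0.09 (adjusted p = 0.462 by edgeR). That value was -0.03 without ID insulin replicate 3, the lowest library at 23.4 CPM. Slc39a8 was at 3.44 to 6.09 CPM in IS control (median 5.44), 5.21 to 9.58 in ID control (median 5.75), 3.94 to 6.52 in IS insulin (median 5.45) and 4.03 to 7.41 in ID insulin (median 6.63). The groups overlapped, with 4 of 9 ID control libraries above all of IS control. The log2 fold change between these groups was 0.32 (95% confidence interval 0.03 to 0.61, unadjusted p = 0.0294, adjusted p = 0.350). With the endothelium and pericyte mean as a covariate it was 0.03 (adjusted p = 0.932).

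STEAP3 is the main endosomal iron reductase of red cell precursors, and STEAP2 is a related reductase of iron and copper. Steap2 was at 8.56 to 14.2 CPM in IS control (median 12.4), 11.1 to 17.1 in ID control (median 14.7), 9.69 to 15.5 in IS insulin (median 11.6) and 9.41 to 18.5 in ID insulin (median 16.7). The ID groups reached higher than the IS groups, but ID insulin replicate 7 was among the lowest libraries of all. ID insulin differed from IS control by a log2 fold change of 0.38 (95% confidence interval 0.13 to 0.63, adjusted p = 0.0788 by edgeR) and from IS insulin by 0.36 (adjusted p = 0.107). Neither was called. With each of the 32 libraries left out in turn, the adjusted p ranged from 0.0157 to 0.161 and from 0.0323 to 0.190, and each lowest value was without ID insulin replicate 7. With the choroid plexus mean as a covariate the difference from IS control was 0.14 (adjusted p = 0.640), and with the proliferation mean it was 0.19 (adjusted p = 0.680). Without insulin, ID control differed from IS control by 0.22 (adjusted p = 0.483), and by -0.02 (adjusted p = 0.984) with the choroid plexus covariate. Steap3 means without insulin were 8.72 ± 1.23 CPM in IS and 9.27 ± 1.01 CPM in ID pups (SD, n = 8 and 9). With insulin they were 9.74 ± 1.10 and 9.07 ± 0.395 CPM (SD, n = 7 and 8), and adjusted p-values ranged from 0.386 to 0.869 over the 6 tests.

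Among the sensors, Aco1 encodes IRP1, which serves as cytosolic aconitase when it holds an iron-sulfur cluster. Its means were 59.6 ± 1.55 CPM in IS control and 60.7 ± 2.40 CPM in ID control (SD, n = 8 and 9), with a log2 fold change of 0.03 (95% confidence interval -0.03 to 0.09, adjusted p = 0.747 by edgeR). The means with insulin were 62.2 ± 2.31 CPM in IS and 61.5 ± 1.37 CPM in ID pups (SD, n = 7 and 8). Aco1 had the narrowest confidence intervals of the 10 genes, and no interval for it reached a log2 fold change of 0.13 in either direction.

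Ireb2 encodes IRP2. IS control libraries held 49.6 to 61.6 CPM (median 53.8), ID control 45.3 to 62.8 (median 53.1), IS insulin 39.3 to 57.1 (median 53.4) and ID insulin 53.9 to 62.2 (median 59.8). Mean values with insulin were lower than without in IS pups and higher in ID pups, and 7 of 8 ID insulin libraries were above all of IS insulin. Between ID insulin and IS insulin the log2 fold change was 0.21 (95% confidence interval 0.08 to 0.35, adjusted p = 0.0761 by edgeR), and the interaction was 0.25 (unadjusted p = 0.0104, adjusted p = 0.150). Neither was called. Without insulin the diets differed by -0.04 (adjusted p = 0.860).

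Fbxl5 encodes the iron-binding subunit of the ligase that removes IRP2. IS control libraries held 70.1 to 78.4 CPM (median 74.8), ID control 72.1 to 82.7 (median 76.2), IS insulin 76.8 to 97.4 (median 81.5) and ID insulin 67.8 to 82.5 (median 78.0). IS insulin was the highest group, with 6 of 7 libraries above all of IS control. IS insulin exceeded IS control by a log2 fold change of 0.17 ± 0.04 (SE), or 1.13-fold, with an unadjusted p of 5.06e-04 and an adjusted p of 0.0929 by edgeR. In that comparison 0 of the 10 genes were called and 2, Fbxl5 and Aco1, had an unadjusted p under 0.05. Of all genes 0.123% were called there. DESeq2 called Fbxl5, with an adjusted p of 0.0444, and it was called in 2 of 14 other settings in all. With each of the 32 libraries left out in turn it was called in 0 fits. The log2 fold change then ranged from 0.13 to 0.19 and edgeR's adjusted p from 0.0587 to 0.257. The highest library, at 97.4 CPM, was IS insulin replicate 1, which was also the highest of its group in Tfrc. In ID pups the difference with insulin was 0.01 (adjusted p = 0.927), and the interaction was -0.16 (adjusted p = 0.161).

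**Figure D3:**
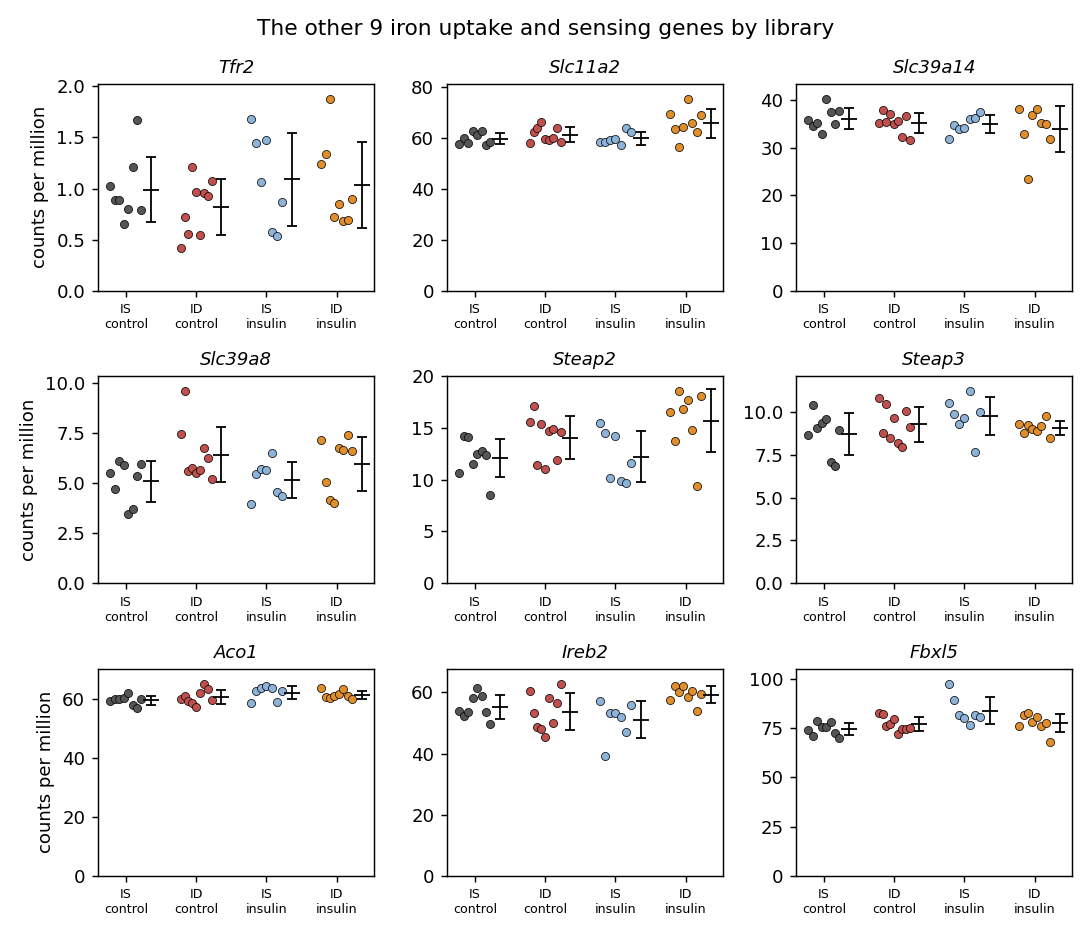
The other 9 genes in CPM (vertical axes, from 0, a scale for each gene) in each library, with the mean and SD beside each group. The groups overlap for every gene. ID insulin replicate 3 is low for Slc39a14 at 23.4 CPM, and IS insulin is the highest group for Fbxl5.

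**Figure D4:**
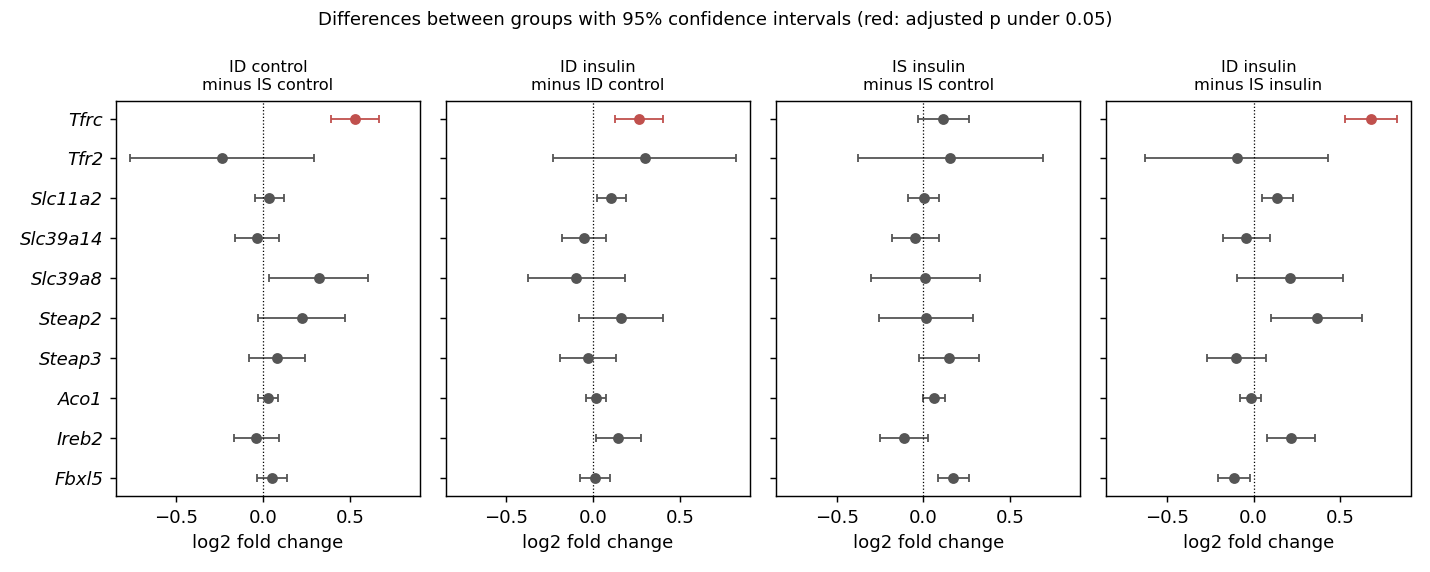
Log2 fold changes of the 10 genes (horizontal axis) with 95% confidence intervals in 4 comparisons. Called genes are in red. Tfrc is called in 3 of the 4 panels, and the interval of Tfr2 is the widest in each.

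Over the 10 genes, the median log2 fold change between ID control and IS control was 0.04, beside 0.01 for all genes tested, and 2 of the 10 had an unadjusted p under 0.05, where 11.9% of all genes did. Between ID insulin and ID control these values were 0.06 beside 0.0039, 3 of 10 and 19.5%. Between ID insulin and IS insulin they were 0.06 beside -0.000571, 5 of 10 and 20.1%. In the interaction 0 of the 10 were called, where 0.939% of all genes were, and 2, Ireb2 and Fbxl5, had an unadjusted p under 0.05, where 17.1% of all genes did.

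Calls among other genes of the pathway stood beside shares of 0.123% to 3.82% of all genes in the 6 tests, at which a list of about 10 genes would hold 0 or few. Of 10 genes of the transferrin cycle and receptor traffic, 0 were called in 5 of the 6 tests, and 1 of 10 was lower in ID insulin than in IS insulin. This was Snx3, a sorting nexin that recycles the transferrin receptor, at 221 ± 5.18 against 242 ± 7.25 CPM (SD, n = 8 and 7), with a log2 fold change of -0.13 and an adjusted p of 0.0484 by edgeR. Tf, transferrin itself, was at 353 ± 96.1 CPM in IS control and 425 ± 92.4 CPM in ID control (SD, n = 8 and 9), with an adjusted p of 0.599. Of 12 other reductase and iron uptake genes 0 were called in any of the 6 tests. Of the genes that control the sensors or the receptor mRNA, 10 of 12 were tested and 0 were called in any of the 6 tests.

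Of 8 other mRNAs known for iron-responsive elements, 0 were called between ID control and IS control. Among them Ftl1 was near the limit of detection, with group means of 0.811 to 0.944 CPM, so little can be read from its result. Fth1, the ferritin heavy chain, was at 792 ± 59.7 CPM in IS control and 868 ± 92.7 CPM in ID control (SD, n = 8 and 9), with a log2 fold change of 0.13 and an adjusted p of 0.435 by edgeR. Between ID insulin and ID control, Epas1, which encodes hypoxia-inducible factor 2 alpha, fell from 267 ± 13.9 to 232 ± 26.4 CPM (SD, n = 9 and 8), with a log2 fold change of -0.20 and an adjusted p of 0.0342. Alas2 rose from 21.3 ± 7.27 to 47.2 ± 19.6 CPM (SD, n = 9 and 8), with an adjusted p of 0.00675. In the IS groups Epas1 was at 232.5 ± 15.9 CPM without insulin and 233.2 ± 18 CPM with it (SD, n = 8 and 7), so ID control was the highest group. Its log2 fold change between ID control and IS control was 0.20 (adjusted p = 0.116 by edgeR). Epas1 is also abundant in endothelium, and Alas2 is among the red cell genes above.

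The titles of the ID control libraries carry 2 first numbers, 69 and 70, while each other group has 1. What the number marks is not given in the sources used here. No first number is shared between groups, so it cannot be told apart from diet and insulin in any comparison of groups. The comparison of 69 and 70 concerns ID control alone. Tfrc was at 166 ± 23.9 CPM in the libraries of number 69 and 172 ± 15.5 CPM in those of number 70 (SD, n = 5 and 4), with a log2 fold change of 0.05 and an adjusted p of 0.918 by edgeR in a fit of these 9 libraries. Of the 10 genes 0 were called, where 0.22% of 15008 genes were, and 1, Fbxl5, had an unadjusted p under 0.05 (0.0358, adjusted p = 0.518). Against IS control, Tfrc was called with either number alone.

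Within groups, Tfrc varied with Steap2. Over the deviations of log2 CPM from the group means in 32 libraries, Pearson's r was 0.579 (permutation within groups, two-sided, p = 4.80e-04, adjusted p = 0.00432 over 9 relations) and Spearman's rho was 0.575 (permutation p = 7.00e-04, adjusted p = 0.00630). Without ID control replicate 5 and IS insulin replicate 1, the libraries farthest from the median in Tfrc, r was 0.504. That fit kept ID insulin replicate 7, at -0.22 in Tfrc and -0.71 in Steap2, the lowest Steap2 deviation of all libraries. The relation without that library was not tested, so how far it rests on these few libraries is not settled. Within single groups r was 0.883 in ID insulin, 0.683 in IS insulin and 0.582 in ID control, but -0.0619 in IS control. With the choroid plexus mean regressed out of both genes r was 0.501, and with the proliferation mean it was 0.463. The other 8 relations of Tfrc with a member had permutation adjusted p-values of at least 0.477 (Pearson) and 0.364 (Spearman).

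**Figure D5:**
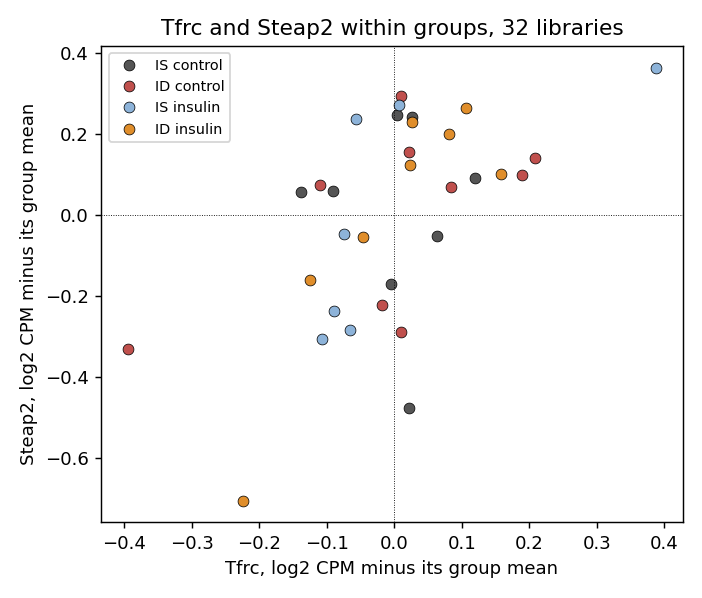
Deviation of log2 CPM from the group mean for Tfrc (horizontal axis) and Steap2 (vertical axis), 1 point per library, coloured by group. Low values of both genes occur together in ID control replicate 5 and ID insulin replicate 7, high values of both in IS insulin replicate 1, and the 8 IS control libraries show no such relation.

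The 5 genes whose log2 CPM was most like that of Tfrc over the 32 libraries were chosen among 11942 genes that have a symbol and average 1 or more in log2 CPM, so their likeness is a description. They were Serpinb9, an inhibitor of granzyme B (r = 0.825), the homeobox gene Pbx3 (0.820), Cfap99 (0.750), Serpinb1a, an inhibitor of neutrophil proteases (0.745), and the lipoxygenase gene Alox15 (0.741). Much of this likeness lay between groups, since for deviations from the group means r was 0.640, 0.434, 0.296, 0.479 and 0.0773 in the same order. Serpinb9 was at 14.3 ± 1.94 CPM in IS control and 19.65 ± 2.05 CPM in ID control (SD, n = 8 and 9). Alox15 was at 83.3 ± 56.3 CPM in IS insulin and 279 ± 125 CPM in ID insulin (SD, n = 7 and 8).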

How the data were processed

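The deposited table holds raw counts of reads per gene for 32 hippocampus libraries, with no columns of other samples. Per the submitters' processing notes, the tools were Trimmomatic (0.40), FastQC, HISAT2 (2.1.0), featureCounts and edgeR, and the builds Rnor_6.0 and mm10 are listed without a role. Strand use and the treatment of reads that match several places are not given in the sources used here, so overlapping, antisense and near-identical genes are uncertain. No 2 libraries of a group were copies (chi-square per gene at least 5.02 over 113 pairs).

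Counts were analysed in R (4.3.3) with edgeR (4.0.16): filterByExpr by group, TMM, and the quasi-likelihood F-test (two-sided) over all 32 libraries with 1 coefficient per group and 28 residual degrees of freedom. Log2 CPM used a prior count of 2. Confidence intervals are at the 95% level. The test was checked on simulated data. Relations used 100000 permutations within groups.

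Groups come from the labels. Members, gene lists and tests were chosen with earlier results of these data known. All 10 members are named, and of the other lists up to 4 called genes per comparison. Genes shown uncalled (Tf, Fth1, Hif1a, Prox1) were chosen for their role. Listed names without a match in the table entered no count. For the repeated symbols Slc40a1 and Hba-a2 the entry with most counts was used.

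Alternatives were DESeq2 (1.42.0), edgeR with the size factors of DESeq2, no filter on counts, a stricter filter (1 CPM or more in 7 libraries), a fit of only the groups compared, voom in limma (3.58.1) with sample weights, a block on the second number of the titles, title number 69 or 70 alone, marker list means as covariates, ID insulin without replicates 3 and 5, and each library left out. The earlier quasi-likelihood method of edgeR and the Tfrc and Steap2 relation within single groups and with list means regressed out were added after seeing the data.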

Additional observations from a re-analysis of the deposited data

Results flagged for a closer look

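In 3 of 40 groups of libraries (10 genes in 4 groups) the highest or lowest library stood apart by Dixon's criterion at the 95% level, and chance gives about 1 in 20. Tfrc was 164.8 CPM in IS insulin replicate 1, the highest of 7, where the next was 126.5 CPM. Slc39a14 was 23.42 CPM in ID insulin replicate 3, the lowest of 8, and this library also had the lowest summed level of hippocampal neuron genes. Fbxl5 was 67.84 CPM in ID insulin replicate 8, the lowest of 8. The effect of insulin on a member was not called as different between ID and IS pups for any of the 10 genes (edgeR interaction, 2 of 10 at an unadjusted p under 0.05).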

How the results depend on the processing

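Tfrc was higher and called between ID control and IS control in all 16 other settings (log2 fold change 0.45 to 0.55) and with each of 32 libraries left out (0.50 to 0.57). The same held for ID insulin against IS control (14 settings, 0.65 to 0.80; left out, 0.77 to 0.82) and against IS insulin (14 settings, 0.48 to 0.71; left out, 0.65 to 0.75). Between ID insulin and ID control Tfrc was called in 9 of 16 settings and with each library left out (0.22 to 0.29, adjusted p up to 0.0496). It was lost, leaving 0 members called, in the compared groups alone (0.26), with title number 69 (0.28) or 70 (0.23) alone, with the erythroid (0.27), endothelium and pericyte (0.24) or proliferation (0.11) mean as covariate and without ID insulin replicates 3 and 5 together (0.23). The Tfrc interaction was -0.056 (adjusted p = 0.791) with the proliferation covariate. The cause of these changes was not tested, and 4 of the 7 fits also had fewer libraries.

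The count of members called was 2 with voom for ID insulin against IS control and against IS insulin, and 2 with the endothelium and pericyte covariate for ID insulin against IS control (Slc11a2 in each). It was 1 for IS insulin against IS control with DESeq2 and with the proliferation covariate (Fbxl5, adjusted p = 0.0444 and 0.0293). With 1 library left out it ranged from 1 to 2 for ID insulin against ID control, from 1 to 3 against IS control and from 1 to 2 against IS insulin, through Slc11a2 and Steap2 and the loss of ID insulin replicate 3 or 7. Of 890 member values under other settings 57 changed sign, and of 1920 with a library left out 52 did, none of them called.

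With the second title number as a replicate block the Tfrc differences were 0.45 (ID control against IS control) and 0.32 (ID insulin against ID control), both called. Over all genes, libraries of the same number did not deviate together more than others (median r 0.00336 over 40 pairs, 0.00381 over 343 other pairs). In 8 and 72 of these pairs r was over 0.1. A pairing that touches few genes or few libraries was not tested. Counts of all genes called, by contrast, depended on the setting: 45 as reported and 22 to 242 in other settings between ID control and IS control, 589 and 56 to 819 between ID insulin and ID control, 19 and 0 to 457 between IS insulin and IS control, 378 and 93 to 723 between ID insulin and IS insulin, 517 and 26 to 855 between ID insulin and IS control, and 145 and 9 to 491 for the interaction. Depth limits Tfr2, with at most 39 reads per library.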
